A study of Rattus norvegicus with 62 samples.

Results

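The genes described here encode the Rab small GTPases. They were taken as every probe set assigned to a single gene symbol made of Rab, a number and at most 1 letter, without Rab3a and Rab3c. The rule gave 94 probe sets of 54 genes, out of 31099 probe sets of 14218 genes on the array, and 26 of the genes had more than 1 probe set. It used names only, though it was chosen with earlier results of these data known. After the dimmest 40% of probe sets in each region were set aside, 82 member probe sets of 49 genes were tested in at least 1 region and 74 in all 3. The other 12 were tested in none, and they left Rab17, Rab19, Rab25, Rab39a and Rab43 without any tested probe set. The remaining untested probe sets were 1 each of Rab14, Rab20, Rab27a, Rab5b and Rab7b.

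Rab proteins are molecular switches that direct membrane traffic. Bound to GTP, each one sits on a particular membrane and recruits motors, tethers and fusion machinery; bound to GDP, it is carried back through the cytosol. Exchange factors turn a Rab on, GTPase-activating proteins turn it off, and prenyl transferase and GDP dissociation inhibitor govern its attachment to membranes. In neurons the family serves transport of newly made proteins to axon and dendrite, recycling of receptors at synapses, synaptic vesicle turnover and lysosomal clearance.

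The rats were male Wistar rats treated for 90 days through a gastric tube, 2 doses a day. They received phenytoin at 75 mg/kg, levetiracetam at 150 mg/kg, or a control solution. Phenytoin is an antiepileptic drug that blocks voltage-gated sodium channels, and levetiracetam is one that binds the synaptic vesicle protein SV2A. RNA from brainstem, hippocampus and frontal cortex was hybridised to 62 single-colour oligonucleotide arrays, in 9 groups of 7 arrays with 6 for control frontal cortex. The labels give no age and no seizure model, and they do not say whether 1 rat gave all 3 regions. For levetiracetam brainstem rats 1 and 2 the label text mentions phenytoin as well as levetiracetam. Both were kept as levetiracetam, and the brainstem counts without them are given where they are used.

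Region markers mostly followed the region labels. Each marker gene, here and below, was read with its brightest probe set only. In control rats, brainstem exceeded hippocampus for 5 of 5 tested brainstem markers, of 10 listed and 7 on the array. Chat, Glra1, Hoxa5 and Hoxb2 passed the brightness filter in brainstem only, so their direction was largely fixed in advance. Slc6a5 and Slc6a2 were too dim to be tested. Frontal cortex exceeded brainstem for 9 of 9 frontal cortex markers, but against hippocampus only 5 of 9 were higher in frontal cortex and 1 was lower. Brainstem was below hippocampus for 8 of 8 hippocampal markers, but against frontal cortex only 4 of 8 were higher in hippocampus and 2 were lower. Dsp passed the brightness filter in hippocampus only, and the frontal cortex markers Fezf2 and Tbr1 did not pass it in brainstem. The direction of these against the dim regions was therefore also largely fixed in advance. By its markers, 1 hippocampal array stood apart. Phenytoin hippocampus rat 7 had a log2 level of 11.31 for Penk, against 7.04 to 8.04 on the 20 other hippocampal arrays, and of 8.95 for Drd2, against 4.37 to 5.81; both genes are typical of striatal neurons. Prox1, a marker of dentate granule cells, stood at 7.39 on that array against 8.81 to 9.43 on the others. Its summed oligodendrocyte marker intensity was 24719, while the highest among the control hippocampal arrays was 17337. Counts of phenytoin calls in hippocampus are therefore given with and without it. Limma's array weight, which is low for an array that departs from its group, was 0.161 for this array. It was 0.178 for levetiracetam frontal cortex rat 3, and 0.313 for phenytoin brainstem rat 1 and control hippocampus rat 1. The 3′ to 5′ signal ratio of Gapdh, a measure of RNA integrity in which higher means more degraded, was 0.39 ± 0.10 (log2, SD, n = 7) in phenytoin hippocampus and 0.24 ± 0.12 in controls (exact permutation p = 0.0233, adjusted p = 0.105 over the 9 drug comparisons). Without rat 7 the phenytoin mean was 0.36 ± 0.08 (n = 6, exact permutation p = 0.0501). On control hippocampus rat 1 the ratio was 0.04, against 0.20 to 0.42 on the other control hippocampal arrays. The permutation test was not repeated without that control array. The beta-actin ratio was 1.57 ± 0.14 in phenytoin frontal cortex and 1.32 ± 0.15 in control frontal cortex (exact permutation adjusted p = 0.0456), where levetiracetam stood at 1.26 ± 0.19 (adjusted p = 0.0456 against phenytoin). In brainstem it was 1.55 ± 0.16 with phenytoin and 1.49 ± 0.11 with levetiracetam, against 1.38 ± 0.06 in control rats (exact permutation adjusted p = 0.0456 and 0.0603). The part of RNA integrity in the drug results was not tested beyond fits that carry these ratios as a covariate.

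All levels below are log2(intensity + 16) after quantile normalization, and a level belongs to 1 probe set, so levels of different probe sets are not ranked against each other. The added 16 makes the scale understate changes of dim genes. A probe set was called where limma's p-value, adjusted by the Benjamini-Hochberg method over all probe sets tested, was below 0.05. Overlap of arrays between groups was checked for the Rab probe sets only, so no share over the whole array stands beside it. In whole tissue, fewer cells of a type and less RNA per cell cannot be told apart.

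Between regions the most uneven Rab genes were Rab37, Rab40b and Rab15. Rab37, which acts in regulated secretion, was high in brainstem and dim elsewhere. Rab40b, a Rab with a SOCS box that joins ubiquitin ligase complexes, was high in hippocampus and frontal cortex and low in brainstem. Rab15, which governs traffic through the recycling endosome, rose in order from brainstem to hippocampus to frontal cortex. In control rats, 25 of 82 Rab probe sets were higher and 24 lower in brainstem than in hippocampus, which is 59.8%. Of all 20202 probe sets 55.4% were called in that comparison, 29.2% higher and 26.2% lower. Brainstem against frontal cortex gave 24 higher and 28 lower (63.4%, against 58.3% of all, 29.6% higher and 28.7% lower), and hippocampus against frontal cortex gave 15 higher and 30 lower (54.9%, against 44.9% of all, 21.1% higher and 23.8% lower). The shares of called Rab probe sets were thus a little above the shares over the whole array in each comparison.

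**Figure D1:**
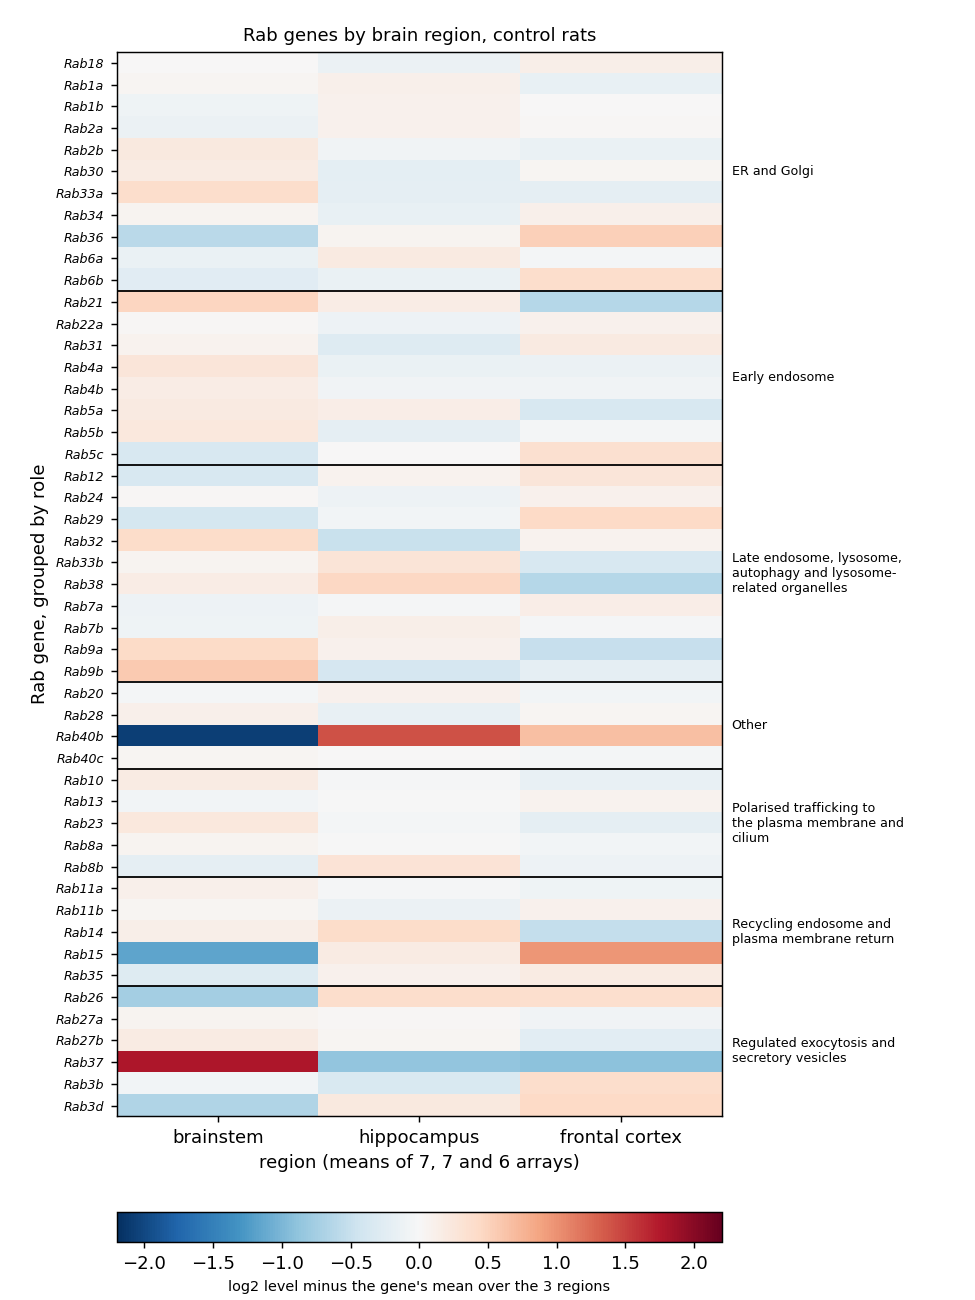
Mean log2 level of the brightest probe set of each of the 49 tested Rab genes in control rats, by region, as the difference from that gene's mean over the 3 regions. Red is above and blue below the gene's mean; Rab40b and Rab15 are lowest in brainstem, Rab37 is highest there, and most other genes differ by less than 0.5 from their mean.

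Among genes of regulated exocytosis, Rab37 had brainstem levels of 7.11 to 7.55 in control rats (median 7.29). Its hippocampal levels ran from 4.19 to 5.41 (median 4.59) and its frontal cortical levels from 4.12 to 4.89 (median 4.78). No brainstem array overlapped either other region, and in hippocampus and frontal cortex the probe set lay within the dimmest 40%. Because the probe set was dim there, only a lower bound is given. The brainstem mean of 7.33 was at least 3.63-fold above the level of 5.47 below which probe sets were set aside in frontal cortex, and at least 3.61-fold above that level (5.48) in hippocampus. Rab26, which links synaptic vesicles to autophagy and granule maturation, ran the other way. Its brainstem levels were 7.44 to 8.10, below the ranges of 8.82 to 9.07 in hippocampus and 8.79 to 9.11 in frontal cortex. The brainstem level was lower by 1.14 (SE 0.09) than in hippocampus, and hippocampus and frontal cortex overlapped. Rab3d, a relative of the synaptic vesicle Rab3 proteins that acts on secretory granules, fell by 1.11 (SE 0.15) in brainstem relative to frontal cortex and by 0.88 (SE 0.15) relative to hippocampus. Rab27b, which docks secretory vesicles, was higher in brainstem than in frontal cortex by 0.58 (SE 0.12), and Rab3b was lower in hippocampus than in frontal cortex by 0.71 (SE 0.15).

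Rab40b had the largest measured difference between regions, and it has a pair of probe sets. The brighter (1383826_at) had levels of 6.02 to 6.56 in control brainstem (median 6.23), 9.62 to 9.96 in hippocampus (median 9.75) and 8.71 to 9.35 in frontal cortex (median 9.07). The 3 ranges did not overlap. Brainstem was lower than hippocampus by 3.46 (SE 0.11), which is 11-fold (limma adjusted p = 6.39e-36), and lower than frontal cortex by 2.73 (SE 0.12), which is 6.62-fold. Hippocampus exceeded frontal cortex by 0.73 (SE 0.12, limma adjusted p = 4.69e-07). The dimmer probe set (1386602_at) lay in the dimmest 40% in brainstem, so it gives only a bound. Its means of 7.16 in hippocampus and 6.88 in frontal cortex were at least 3.26-fold and 2.68-fold above the brainstem limit of 5.46.

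**Figure D2:**
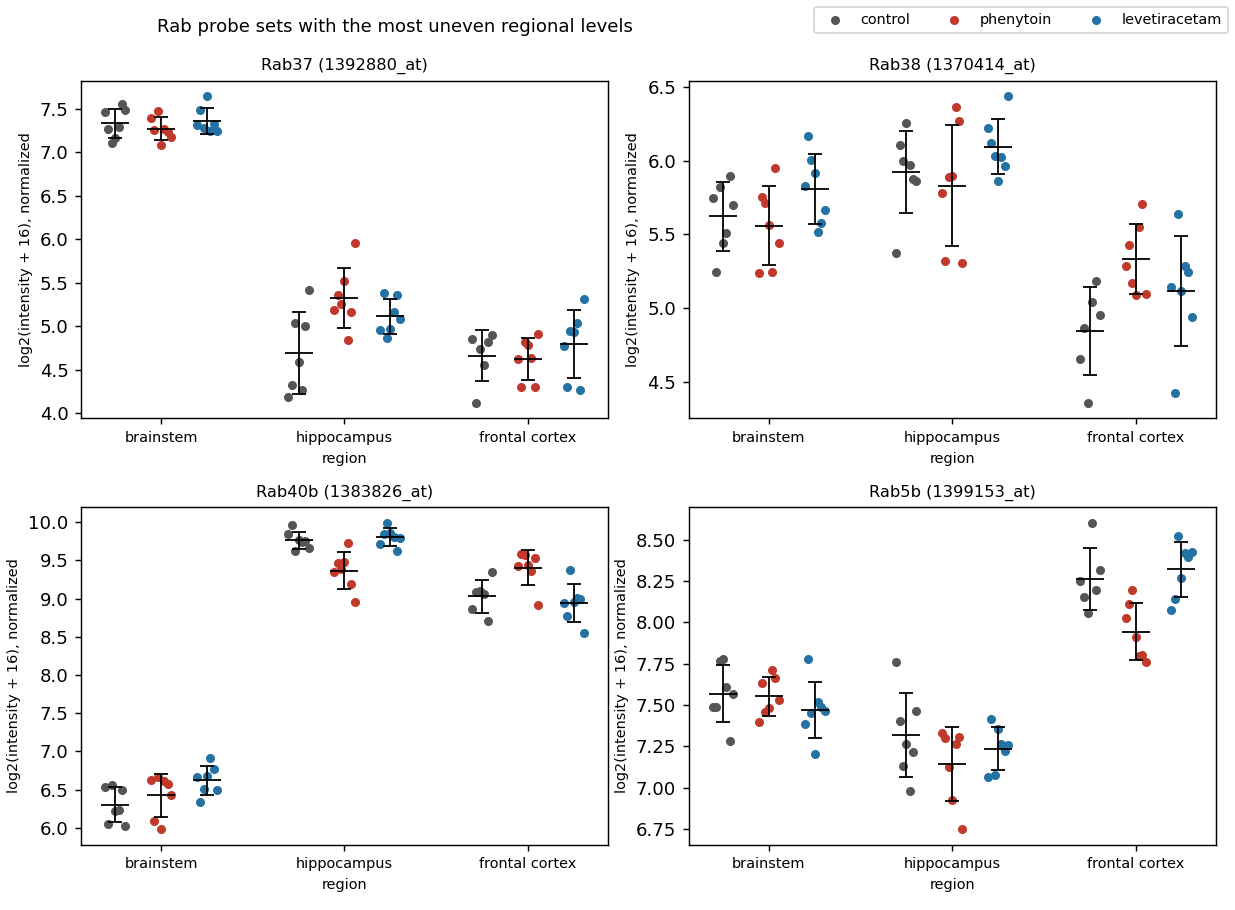
Log2 level on each array for the 4 Rab probe sets at either extreme of a control region comparison, by region and treatment (grey control, red phenytoin, blue levetiracetam); bars are the mean ± SD. Rab37 is separated from the other regions in brainstem and Rab40b is lowest there under all 3 treatments, whereas Rab5b is highest in frontal cortex and Rab38 lowest there.

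Of the recycling Rabs, Rab15 gave the same order with each of its 3 probe sets. With the brightest (1373646_at), control brainstem levels were 7.26 to 7.85 (median 7.56), hippocampal levels 8.39 to 9.18 (median 8.94) and frontal cortical levels 9.63 to 9.77 (median 9.69), with no overlap. Brainstem was lower than frontal cortex by 2.14 (SE 0.11), or 4.42-fold, and lower than hippocampus by 1.35 (SE 0.11); the other two probe sets gave -1.66 and -1.63, and -0.93 and -0.89. Hippocampus was lower than frontal cortex by 0.79, 0.74 and 0.72. Rab14, which moves cargo between Golgi, endosomes and the plasma membrane, was different, because its probe sets opposed each other. Probe set 1375687_at was higher in hippocampus than in frontal cortex by 0.93 (SE 0.09) and in brainstem than in frontal cortex by 0.65 (SE 0.09), and 1367884_at was higher by 0.26 and 0.29. Its probe sets 1376796_at and 1385314_at were lower by 0.28 and 0.50 for hippocampus, and by 0.48 and 0.59 for brainstem. All 8 differences passed the threshold, so the direction for Rab14 depends on the probe set. Rab11b, a recycling Rab abundant in brain, was lower in hippocampus than in frontal cortex by 0.57 (SE 0.10) with 1398825_at.

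Among early endosomal Rabs, Rab21, which carries integrins inward, was higher in brainstem than in frontal cortex by 1.10 (SE 0.11) and higher in hippocampus than in frontal cortex by 0.79 (SE 0.11). Its control levels were 9.18 to 9.53 in brainstem, 8.89 to 9.12 in hippocampus and 7.86 to 8.62 in frontal cortex, with no overlap between neighbours in that order. Rab5b, one of the Rab5 proteins that drive early endosome fusion, differed most with 1399153_at. Its levels were 8.06 to 8.60 in frontal cortex, above 7.28 to 7.78 in brainstem and 6.98 to 7.76 in hippocampus, and hippocampus was lower than frontal cortex by 0.95 (SE 0.10). Probe sets 1393288_at and 1392643_at of Rab5b were also lower in brainstem than in frontal cortex, by 0.53 and 0.81, whereas the brightest, 1388823_at, was higher by 0.28 (limma adjusted p = 0.000125). Rab22a (1372862_at), which helps sort cargo from early endosomes, was higher in brainstem than in hippocampus by 1.00 (SE 0.19), and hippocampus was lower than frontal cortex by 0.85 (SE 0.20). With 1377896_at it was higher in brainstem than in frontal cortex by 0.39, where the other two Rab22a probe sets gave 0.14 and -0.06 and did not pass. Rab31 (1370780_at) was lower in hippocampus than in frontal cortex by 0.64.

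Of 12 tested late endosomal and lysosomal probe sets, 4 were higher and 4 lower in brainstem than in frontal cortex. Rab9a and Rab9b, which return receptors from late endosome to the Golgi, were higher in brainstem than in frontal cortex by 0.94 (SE 0.11) and 0.77 (SE 0.11), and Rab9b exceeded hippocampus by 0.94. Rab9a was also higher in hippocampus than in frontal cortex, by 0.60, with overlapping arrays. Rab38, needed for lysosome-related organelles such as melanosomes, had control levels of 5.38 to 6.26 in hippocampus, 5.24 to 5.90 in brainstem and 4.36 to 5.19 in frontal cortex. Hippocampus and brainstem overlapped, and no array of either overlapped frontal cortex, where the probe set was among the dimmest 40%. Against the frontal cortical limit the means stood only 0.45 and 0.15 higher, so the size of the difference was not measured. Rab32, its close relative, was dim in hippocampus, and its brainstem mean of 6.25 was at least 1.7-fold above the hippocampal limit. Rab33b, which acts at Golgi and forming autophagosomes, was higher in hippocampus than in frontal cortex by 0.63. Rab12 was lower in brainstem than in hippocampus by 0.63 (1371055_at).

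Among ER and Golgi Rabs, Rab36 rose from brainstem (6.49 to 6.96) through hippocampus (7.25 to 7.42) to frontal cortex (7.64 to 7.96) without overlap, and brainstem was lower than frontal cortex by 1.11 (SE 0.08). Rab33a was higher in brainstem than in hippocampus by 0.59 and than in frontal cortex by 0.60. Rab6b, a Rab6 form enriched in neurons, was lower in hippocampus than in frontal cortex by 0.90 (SE 0.09) with 1392478_at. Rab6a probe sets opposed each other between hippocampus and frontal cortex: 1372707_at was higher in hippocampus by 0.25 and 1371103_at lower by 0.50, and both passed. Rab23, a Rab of ciliary signalling, was higher in brainstem than in frontal cortex by 0.44 (1376409_at). Its other probe set (1396716_at) was lower in brainstem, but it passed the brightness filter in frontal cortex only. Its frontal cortical mean of 5.87 stood little above the brainstem limit of 5.46, so the size of that difference was not measured. Among the polarised trafficking Rabs, Rab10 (1368847_at) was higher in brainstem than in frontal cortex by 0.62, and Rab8b was lower in brainstem than in hippocampus by 0.50 and 0.53 with 2 of its 3 probe sets. Some members were split with only 1 side past the threshold. Of these, Rab2b was higher in brainstem than in frontal cortex by 0.36 with 1388892_at and gave -0.09 with 1375985_at, and Rab30 was lower there by 0.52 with 1398640_at and gave 0.13 with 1379606_at. Rab6b was higher in brainstem than in hippocampus by 0.36 with 1392478_at and gave -0.10 with 1388632_at. Rab7a was lower in hippocampus than in frontal cortex by 0.17 with 1387797_at and gave 0.01 with 1398838_at.

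The regional differences were read again in the drug-treated rats, which are separate animals. Of the 49 Rab probe sets called between brainstem and hippocampus in control rats, 36 were called the same way in phenytoin rats and 40 in levetiracetam rats. For brainstem against frontal cortex the numbers were 43 and 48 of 52, and no called probe set turned round in either comparison. For hippocampus against frontal cortex, 30 and 40 of 45 were called the same way, and 4 were called the other way in phenytoin rats, none in levetiracetam rats. Those 4 were Rab5a (0.51 in control and -0.25 in phenytoin rats, 1388800_at), Rab11a (0.51 and -0.29, 1374069_at), Rab1a (0.28 and -0.32) and Rab6a (0.25 and -0.18, 1372707_at). The other Rab5a probe set (1387641_at) gave -0.23 in control rats and did not pass (limma adjusted p = 0.0781). Rab40b, 0.73 higher in hippocampus than in frontal cortex of control rats, gave -0.04 in phenytoin rats (limma adjusted p = 0.815) and 0.86 in levetiracetam rats. Repeats and reversals were not counted over all probe sets, so these counts are not read as particular to the Rab genes. Called shares in the treated rats were 58.5% in each comparison for phenytoin (54.2%, 57.4% and 42.2% of all probe sets, in the order above) and 59.8%, 61.0% and 58.5% for levetiracetam (53.6%, 61.8% and 51.8% of all). Cell type markers moved with region too: in control rats 9 of 9 tested oligodendrocyte markers and 6 of 7 endothelial markers had their higher level in brainstem, against hippocampus. Summed oligodendrocyte marker intensity was 26249 to 28508 in control brainstem, 13349 to 17337 in hippocampus and 10920 to 16678 in frontal cortex. Their part in the Rab differences was not tested.

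Before the drug comparisons, the stretches upstream of 5 genes are shown, because these genes had a probe set called in more than 1 drug-against-control contrast. Rab5a and Rab21 act on early endosomes, Rab11a on recycling endosomes, Rab1a between ER and Golgi and Rab6a in the Golgi. Each sequence is the 250 bases before the annotated start, on the gene's strand, from RefSeq on GRCr8, in lower case with matches to GGGCGG (the GC box), CCAAT (the CCAAT box) and CACGTG (an E-box core) in capitals, each on either strand.  The positions are chr9:6720877-6721126 on the plus strand for Rab5a, chr7:52814944-52815193 on the minus strand for Rab21, chr8:74141685-74141934 on the minus strand for Rab11a, chr14:98623427-98623676 on the plus strand for Rab1a and chr1:164369783-164370032 on the plus strand for Rab6a.
Rab5a: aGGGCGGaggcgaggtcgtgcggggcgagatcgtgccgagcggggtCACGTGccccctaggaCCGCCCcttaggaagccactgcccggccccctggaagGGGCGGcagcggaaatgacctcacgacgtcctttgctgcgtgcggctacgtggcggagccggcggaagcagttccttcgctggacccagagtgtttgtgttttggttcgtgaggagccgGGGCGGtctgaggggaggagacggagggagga
Rab21: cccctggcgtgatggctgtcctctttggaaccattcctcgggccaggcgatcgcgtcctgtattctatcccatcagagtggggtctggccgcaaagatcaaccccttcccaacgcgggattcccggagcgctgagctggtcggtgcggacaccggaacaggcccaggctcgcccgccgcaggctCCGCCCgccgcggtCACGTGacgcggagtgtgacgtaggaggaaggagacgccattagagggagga
Rab11a: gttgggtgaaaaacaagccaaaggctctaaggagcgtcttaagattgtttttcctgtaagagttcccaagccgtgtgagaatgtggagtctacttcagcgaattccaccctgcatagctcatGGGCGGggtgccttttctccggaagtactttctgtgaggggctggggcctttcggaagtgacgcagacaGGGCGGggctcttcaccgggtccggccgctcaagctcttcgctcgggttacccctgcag
Rab1a: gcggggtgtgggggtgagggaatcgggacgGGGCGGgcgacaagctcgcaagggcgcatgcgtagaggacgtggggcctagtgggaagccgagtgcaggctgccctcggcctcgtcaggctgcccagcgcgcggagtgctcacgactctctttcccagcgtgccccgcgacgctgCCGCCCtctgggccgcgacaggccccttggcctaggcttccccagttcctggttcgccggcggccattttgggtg
Rab6a: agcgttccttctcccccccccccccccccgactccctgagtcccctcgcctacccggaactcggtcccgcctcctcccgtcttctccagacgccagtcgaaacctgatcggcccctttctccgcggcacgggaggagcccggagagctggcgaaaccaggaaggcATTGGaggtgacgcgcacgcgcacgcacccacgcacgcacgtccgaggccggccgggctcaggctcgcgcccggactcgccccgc

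The stretches of Rab5a, Rab21, Rab11a and Rab1a hold GC boxes, and that of Rab6a holds a CCAAT box on the other strand. Of 54 member genes, 43 had an upstream entry. GGGCGG was found on either strand in 33 of these 43 (76.7%), against 40.3% of 18999 protein-coding genes with stretches of the same length. CACGTG was found in 3 of 43 (6.98%, against 6.38% of all), in Rab5a, Rab21 and Rab31. TATAAA was found in 0 of 43, against 12.3% of all, and CCAAT in 14 of 43 (32.6%, against 35.5%). TGACGTCA, the cyclic AMP response element, and the palindromic NRF1 site were each found in 1 of 43 (2.33%, against 2.03% and 1.03%). The median GC content was 63.2% for the Rab genes and 54.8% for all. Of the 11 genes with lower probe sets in phenytoin hippocampus (below), 9 had an entry, and 7 of these 9 held GGGCGG, as did 26 of the 34 other Rab genes. A match is a string of letters and says nothing about binding.

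In the hippocampus of phenytoin rats, 17 of 76 tested Rab probe sets were lower than in control rats and 1 was higher, which is 23.7% called, against 9.24% of all 18625 probe sets. Lower calls alone made up 4.69% of all probe sets and higher calls 4.55%. The called probe sets belong to 12 genes, and their differences ran from -0.56 to -0.24, with Rab6b at 0.27. Over all 76 the median difference was -0.10, whereas over all probe sets it was 0.00, and 53 of the 76 were below 0. Without rat 7, 17 were lower and 3 higher, 17 of the 18 calls were kept, and 12.3% of all probe sets were called. With the Gapdh ratio as a covariate none of the 76 was called, and 17 of all 18625 were. The 18 differences then kept a median of 0.724 of their size.

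Among the ER and Golgi Rabs, 6 of 20 tested probe sets fell and 1 rose. Rab1a, which starts transport from ER to Golgi, had levels of 11.50 to 11.82 in control hippocampus (median 11.61) and 11.13 to 11.50 in phenytoin hippocampus (median 11.40). The groups met at their edges without overlap, and the fall was 0.31 (SE 0.06, limma adjusted p = 0.00506). Its close paralog Rab1b fell with 3 of its 4 tested probe sets, by 0.56, 0.35 and 0.24; the fourth, whose suffix marks probes shared with other sequences, gave -0.26 (limma adjusted p = 0.0678). Transcripts of Rab1a and Rab1b are alike, so the paralogs may not be fully separated. Rab2a, which acts on membranes returning from the Golgi, had levels of 10.21 to 10.51 in control rats and 9.49 to 10.25 in phenytoin rats. These overlapped slightly, and the fall was 0.46 (SE 0.10, limma adjusted p = 0.00684); the other Rab2a probe set gave -0.09. Rab6a (1371103_at), which serves traffic inside the Golgi and back to the ER, fell by 0.46 (SE 0.14), from 9.08 to 9.88 in control rats to 8.49 to 9.34, with its other probe set at -0.17. Rab6b rose: it stood at 10.96 to 11.22 in control rats and 11.20 to 11.56 in phenytoin rats, a difference of 0.27 (SE 0.06, limma adjusted p = 0.00755).

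**Figure D3:**
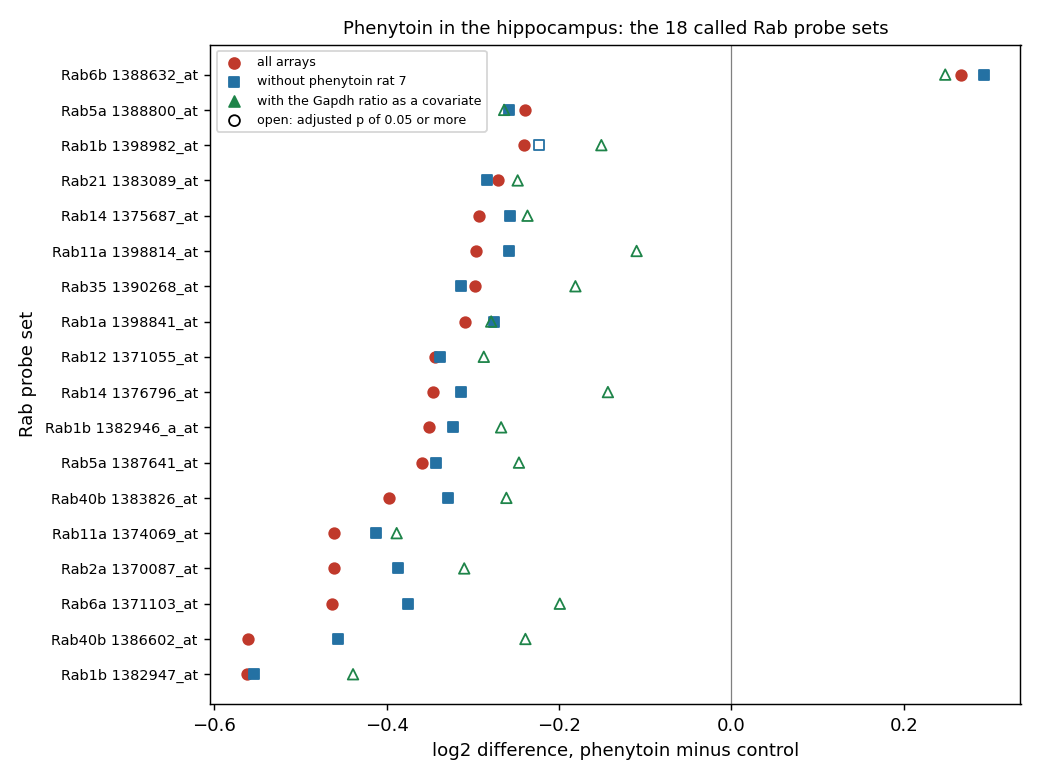
Log2 difference, phenytoin minus control, in hippocampus for the 18 called Rab probe sets with all arrays (red circles), without phenytoin rat 7 (blue squares) and with the Gapdh ratio as a covariate (green triangles); open symbols have an adjusted p of 0.05 or more. All triangles are open, and every probe set keeps its sign.

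Among the recycling Rabs, 5 of 12 tested probe sets fell. Rab11a, which returns receptors and channels to the surface, had levels of 8.60 to 8.81 in control hippocampus (median 8.70) and 7.91 to 8.74 in phenytoin hippocampus (median 8.19). Most phenytoin arrays lay below the control range, and 6 of 7 lay below the control median; the fall was 0.46 (SE 0.10, limma adjusted p = 0.00925), and 0.30 with its other probe set (limma adjusted p = 0.029). Rab14 fell by 0.29 and 0.35 with 1375687_at and 1376796_at, and gave 0.12 and -0.12 with the other two. Rab35, which drives fast recycling from the plasma membrane, had levels of 7.73 to 8.23 in control rats and 7.44 to 7.85 in phenytoin rats. It fell by 0.30 (SE 0.08).

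Early endosomal Rabs gave 3 lower of 14 tested, and these were both Rab5a probe sets and Rab21. Rab5a, the switch for early endosome fusion, had levels of 9.61 to 9.88 (median 9.66) in control rats and 9.29 to 9.68 (median 9.39) in phenytoin rats with 1388800_at. It fell by 0.24 (SE 0.06) with that probe set and by 0.36 (SE 0.11) with 1387641_at. Rab21 fell by 0.27 (SE 0.07), from a control range of 8.89 to 9.12 to 8.51 to 9.01. Of 11 late endosomal and lysosomal probe sets only Rab12, linked to degradation of membrane receptors, was called, and it fell by 0.34 (SE 0.10) with 1371055_at while 1371871_at gave 0.02. Both Rab40b probe sets fell, by 0.40 (SE 0.09) and 0.56 (SE 0.13). None of 7 probe sets of regulated exocytosis and none of 8 of polarised trafficking passed.

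In this contrast 9 of the 12 called genes had more than 1 tested probe set. In 7 of these all probe sets pointed the same way, and in 3 every probe set was called. Some markers were called as well, in counts too small to be read as a shift of a cell type. With all arrays and without rat 7, 2 of 8 oligodendrocyte markers and 2 of 10 neuronal markers were higher in phenytoin hippocampus. With all arrays, 1 of 9 frontal cortex markers was higher and 2 were lower. Over all probe sets 4.55% were higher and 4.69% lower in that fit. No endothelial marker was called in either fit, and 0 of 9 microglial markers were called with all arrays and 2, both lower, without rat 7. The signal of spiked-in control RNA was 10.51 ± 0.17 in phenytoin and 10.86 ± 0.32 in control hippocampus (log2, SD, n = 7 each, exact permutation adjusted p = 0.0262). On control rat 1 it was 11.54, against 10.63 to 10.96 on the other control arrays. The part of the spiked-in signal and that of the markers were not tested.

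In frontal cortex, of 79 tested with phenytoin, 2 rose and 5 fell (8.86%, against 6.39% of all probe sets, 5.11% higher and 1.28% lower). Both rises, of Rab5a and Rab1a, depended on the processing. On the values as deposited, without quantile normalization, 0 rose and 5 fell, and with the beta-actin ratio as a covariate or the rat number as a replicate block 0 rose and 2 fell. That block joined rats of the same number across treatments, which are different animals. Rab5a (1388800_at) stood at 8.92 to 9.85 in control rats (median 9.09) and 9.41 to 9.98 in phenytoin rats (median 9.70). A single control array, rat 7, made the groups overlap, and the rise was 0.51 (SE 0.14, limma adjusted p = 0.0253). The other Rab5a probe set gave -0.02. Rab1a rose by 0.29 (SE 0.08, limma adjusted p = 0.0354), from a control range of 11.30 to 11.50 to 11.45 to 11.89.

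Those that fell were Rab15, Rab6a, Rab3d, Rab14 and Rab11b. Rab15 had levels of 9.63 to 9.77 in control rats and 9.24 to 9.58 in phenytoin rats with 1373646_at, without overlap. It fell by 0.31 (SE 0.07, limma adjusted p = 0.00833), and its other probe sets gave -0.14 and 0.10. Rab6a fell by 0.33 (SE 0.09) with 1371103_at, from 9.82 to 10.19 to 9.41 to 9.97 with overlap, and 1372707_at gave 0.26 (limma adjusted p = 0.157). Rab3d fell by 0.39 (SE 0.11), from 6.47 to 6.95 down to 6.17 to 6.67, with some overlap. Rab14 (1367884_at) fell by 0.26 and Rab11b (1398825_at) by 0.35. In 4 of the 5 called genes with several tested probe sets the probe sets did not all point the same way.

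The frontal cortical count moved with single arrays. Leaving out 1 array at a time gave 1 to 11 calls: 1 without phenytoin rat 4 or 6 or control rat 1 or 2, 2 without control rat 5 or 6, 4 without phenytoin rat 1, 3 or 7, and 11 without control rat 7. With the beta-actin ratio as a covariate 2 were called, 1 of them, Rab15, from the original 7, and with array weights 18 were called.

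In brainstem, phenytoin gave no Rab call. Of 80 tested, 0 passed in limma, 8 had an unadjusted p below 0.05, and 0.0161% of all probe sets were called. The smallest p-values belonged to Rab5c (0.28, limma adjusted p = 0.543), Rab26 (0.24) and Rab20 (0.31), none of which passed.

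**Figure D4:**
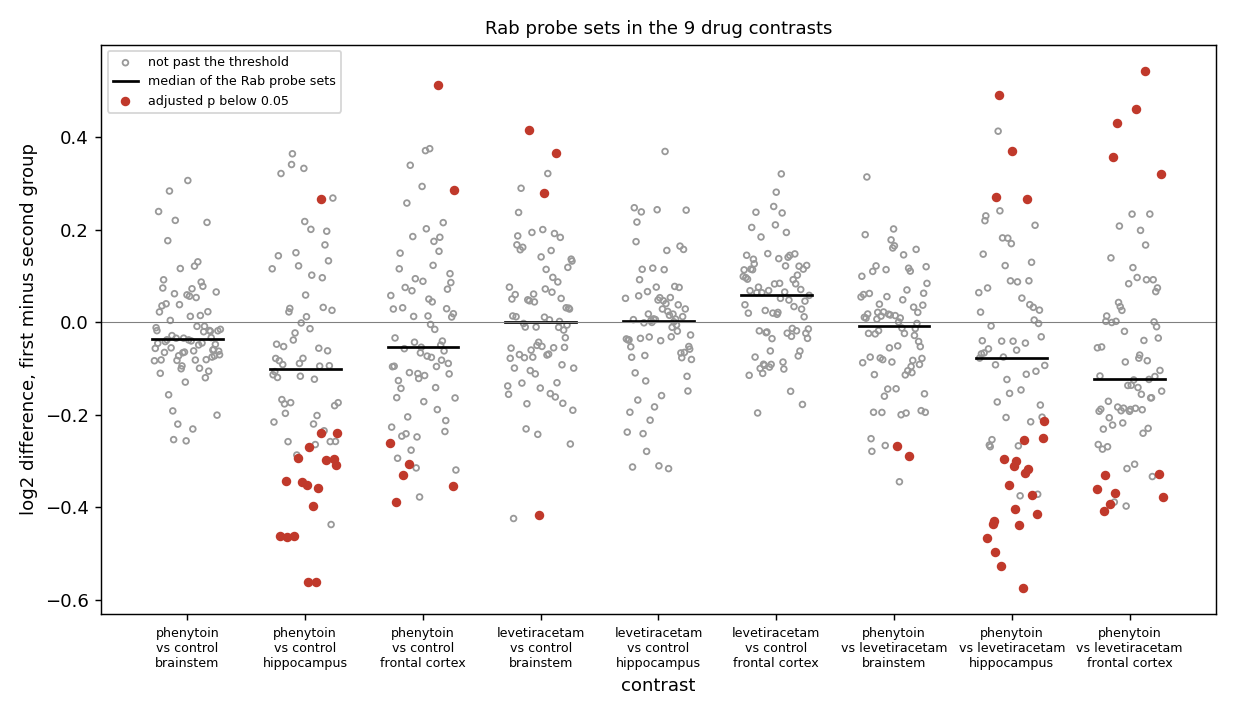
Log2 difference of every tested Rab probe set in the 9 drug contrasts; filled red points have an adjusted p below 0.05 and black lines are the medians of the Rab probe sets. Called points lie mostly below 0 for phenytoin in hippocampus, on both sides for phenytoin in frontal cortex, and are absent for levetiracetam in hippocampus and frontal cortex.

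With levetiracetam, Rab calls were made in brainstem, where 3 rose and 1 fell of 80 tested (5%, against 9.24% of all probe sets, 5.17% higher and 4.07% lower), a share below that of the whole array. Another 13 of the 17 with an unadjusted p below 0.05 did not pass. Rab5a (1388800_at) stood at 9.55 to 9.93 in control brainstem (median 9.74) and 10.04 to 10.22 in levetiracetam brainstem (median 10.08), without overlap. It rose by 0.37 (SE 0.06, limma adjusted p = 0.000788), and its second probe set gave 0.10. Rab21 stood at 9.18 to 9.53 and 9.54 to 9.71, again without overlap, and rose by 0.28 (SE 0.07, limma adjusted p = 0.0115). Rab11a (1374069_at) rose by 0.42 (SE 0.10, limma adjusted p = 0.00835), from 8.24 to 8.96 to the narrow range of 8.95 to 9.14, with its other probe set at 0.03. Rab36, a Golgi Rab that affects the placement of lysosomes, fell by 0.42 (SE 0.10, limma adjusted p = 0.0127), from 6.49 to 6.96 down to 5.93 to 6.50. Without levetiracetam rats 1 and 2, whose labels name both drugs, 3 rose and 3 fell, and all 4 calls were kept. With the beta-actin ratio as a covariate Rab5a and Rab11a were still called, and Rab21 and Rab36 were not. Leaving out control rat 1 raised the count to 8.

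In the other regions levetiracetam gave 0 calls by limma: 0 of 76 in hippocampus (10 with an unadjusted p below 0.05) and 0 of 79 in frontal cortex (0 unadjusted). Over all probe sets 0% were called in either region, although 1680 and 749 had an unadjusted p below 0.05. Rab36 came nearest in hippocampus at -0.31, with a 95% interval of -0.46 to -0.16 (limma adjusted p = 0.205), followed by Rab24 (-0.18) and Rab40c (-0.24). In frontal cortex the smallest p-values were those of Rab20 (0.28) and the pair of Rab27b probe sets (0.20 and 0.25), with a limma adjusted p of 0.954.

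**Figure D5:**
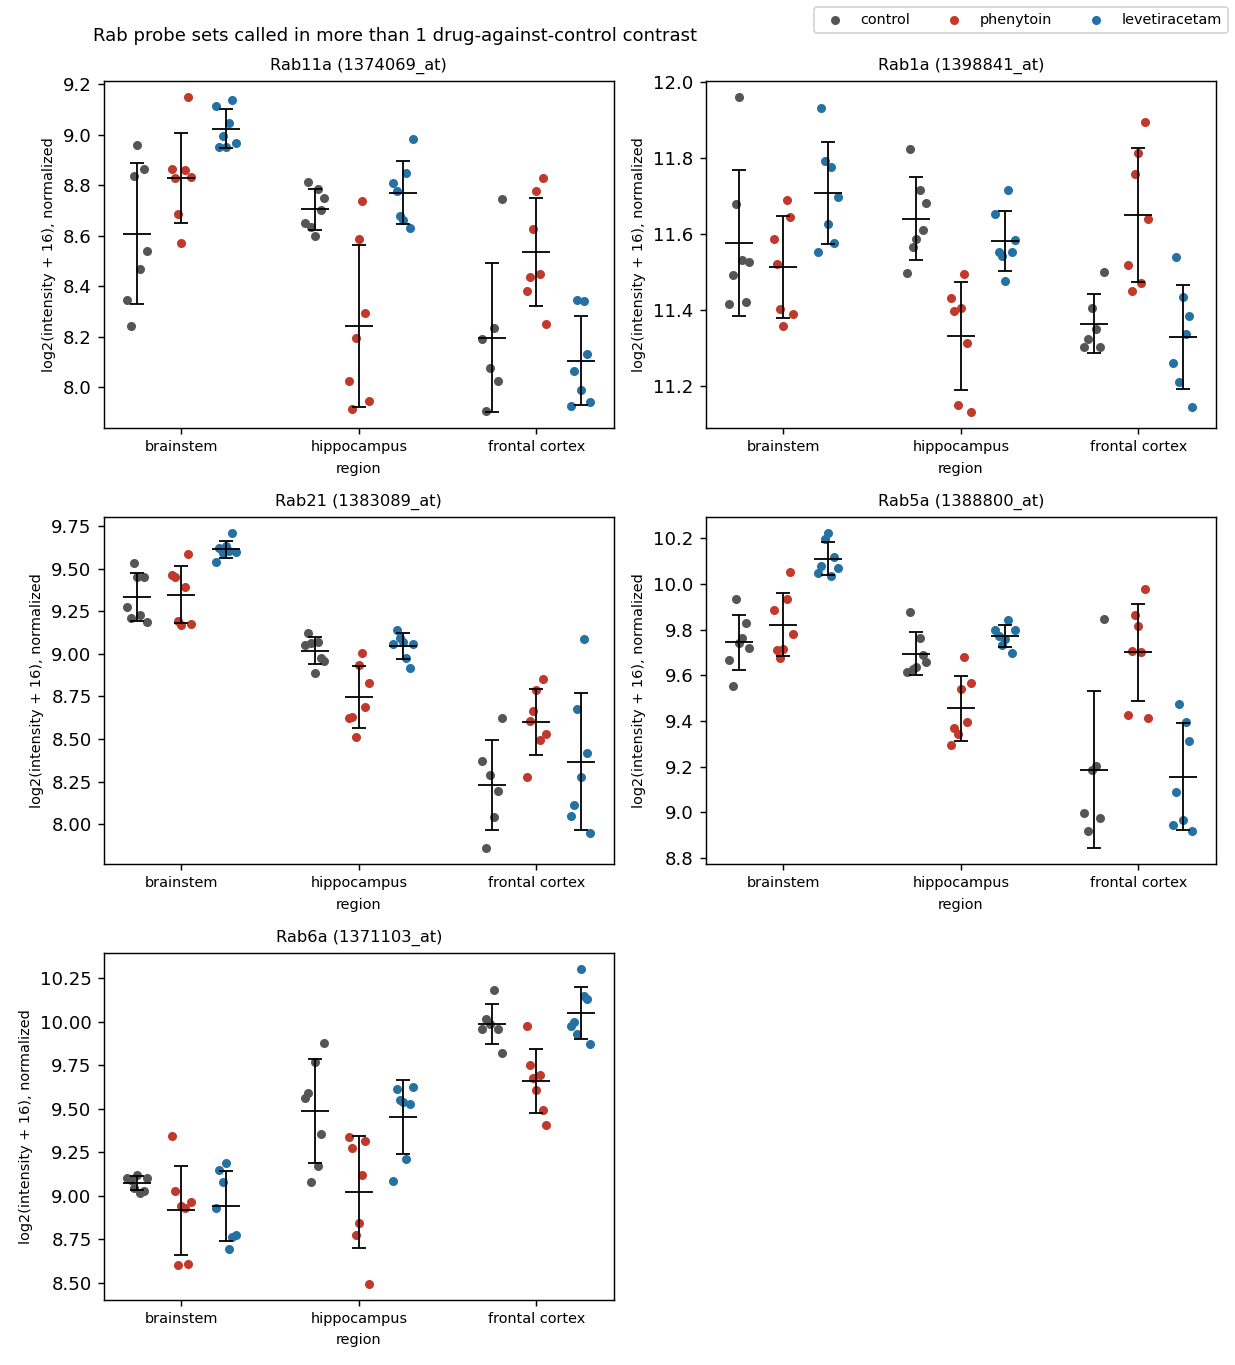
Log2 level on each array for the 5 Rab probe sets called in more than 1 drug-against-control contrast, by region and treatment (grey control, red phenytoin, blue levetiracetam); bars are the mean ± SD. Each is lower with phenytoin than with control in hippocampus; Rab5a and Rab1a are higher and Rab6a lower with phenytoin in frontal cortex, and Rab5a, Rab11a and Rab21 are higher with levetiracetam in brainstem.

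Compared directly with each other in hippocampus, 4 Rab probe sets were higher and 19 lower with phenytoin than with levetiracetam (30.3% of 76, against 16.8% of all, 8.01% higher and 8.76% lower). This comparison and the one with control rats share the phenytoin arrays. Without phenytoin rat 7 the numbers were 6 higher and 17 lower, with 20 of the 23 calls kept, and with the Gapdh ratio as a covariate 8 were called, of Rab11a, Rab12, Rab21, Rab36, Rab40b, Rab5a, Rab6b and Rab9a. The spiked-in signal was 10.51 ± 0.17 with phenytoin and 10.91 ± 0.11 with levetiracetam (exact permutation adjusted p = 0.00525), and the Gapdh ratio 0.39 ± 0.10 and 0.27 ± 0.03 (exact permutation p = 0.00932, adjusted p = 0.0839). With phenytoin 2 of 10 neuronal markers were higher and 2 lower, 2 of 9 astrocyte markers were higher and 1 lower, 2 of 8 oligodendrocyte markers were higher and 2 of 8 hippocampal markers lower. The part of these in the Rab differences was not tested beyond the covariate. Groups did not overlap for Rab5a (-0.32, SE 0.06), Rab35 (-0.37, SE 0.08), Rab12 (-0.44, SE 0.10), Rab14 (-0.30, SE 0.07), Rab6b (0.27, SE 0.06) and Rab36 (0.37, SE 0.07). How many of all probe sets did not overlap was not counted. Rab12 gave -0.09 with its other probe set (1371871_at), and Rab14 gave 0.06 with 1367884_at and -0.15 with 1385314_at. For Rab36 the levels were 7.28 to 7.59 with phenytoin, 6.86 to 7.24 with levetiracetam and 7.25 to 7.42 in control rats. Rab11a (-0.53) and a Rab40b probe set (-0.58) gave larger differences with overlap. Further lower calls were Rab2a (-0.47), Rab5c (-0.50), Rab6a (-0.43), Rab1a (-0.25), Rab9a (-0.26), Rab21 (-0.30) and all 4 tested Rab1b probe sets (-0.42 to -0.21). Second probe sets of Rab40b (-0.44), Rab14 (-0.35) and Rab5a (-0.33) were lower as well. Rab15 (0.49, 1373646_at) and Rab40c (0.27) were higher, and the other Rab15 probe sets gave -0.01 and -0.00.

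In frontal cortex 5 were higher and 7 lower with phenytoin than with levetiracetam (15.2% of 79, against 10.8% of all, 7.09% higher and 3.71% lower). With the Gapdh ratio as a covariate 11 were called here, where hippocampus gave 8, and with the beta-actin ratio 7. Higher were Rab5a (0.54, SE 0.13), Rab40b (0.46, SE 0.12), Rab11a (0.43, SE 0.12), Rab6a (0.36, 1372707_at) and Rab1a (0.32, SE 0.08). Lower were Rab2a (-0.41), Rab6a (-0.39, 1371103_at), Rab5b (-0.38, 1399153_at), Rab15 (-0.37), Rab14 (-0.36, 1367884_at), Rab11b (-0.33) and Rab27b (-0.33). Rab6a was called in both directions. Its levels with 1371103_at were 9.41 to 9.97 with phenytoin and 9.87 to 10.30 with levetiracetam, whereas with 1372707_at they were 11.68 to 12.12 and 11.12 to 11.81. The probe sets did not all point the same way in 7 of the 10 called genes that had several, so these are differences of probe sets and not of whole genes. In brainstem Rab5a (-0.29, limma adjusted p = 0.0137) and Rab21 (-0.27, limma adjusted p = 0.035) were lower with phenytoin (2 of 80, with 2.98% of all called, 1.22% higher and 1.76% lower), and Rab14 (1375687_at, -0.27, limma adjusted p = 0.0565) did not pass. This count was 1 without phenytoin rat 3, 4 or 7 or levetiracetam rat 3, 4, 6 or 7, and 4 without phenytoin rat 1 or levetiracetam rat 5.

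Whether a drug's difference from control was the same in the 3 regions was tested directly by an F test. For phenytoin it was not the same for 14 of 82 Rab probe sets (17.1%, against 11.1% of all). One of the 14, Rab37, was bright enough to be tested in brainstem only, so its p-value is not read, and the other 13 were tested in all 3 regions. The smallest p-value was that of Rab5a (1388800_at), with 0.08 in brainstem, -0.24 in hippocampus and 0.51 in frontal cortex (limma adjusted p = 0.000163). Next came Rab1a, with -0.06, -0.31 and 0.29 (limma adjusted p = 0.000168), and Rab11a (1374069_at), with 0.22, -0.46 and 0.34 (limma adjusted p = 0.000265). Rab40b (1383826_at) and Rab21 had the same signs in hippocampus and frontal cortex as these, and Rab15 (1373646_at) the opposite ones. The second probe sets of Rab5a (1387641_at) and Rab11a (1398814_at) showed no such rise in frontal cortex. In hippocampus and frontal cortex they gave -0.36 and -0.02 for Rab5a, and -0.30 and 0.01 for Rab11a. Without phenytoin hippocampus rat 7, 14 were called, 12 of them shared, and with the Gapdh ratio as a covariate 7 were called. For levetiracetam 0 of 82 passed in limma, 7 had an unadjusted p below 0.05, and 0.0644% of all were called. The smallest belonged to Rab36 (limma adjusted p = 0.134), Rab11a (0.33) and Rab5a (0.383), so its brainstem calls were not shown to differ from the other regions.

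The genes that switch, modify and read out Rabs were taken from a list of 104, of which 88 were on the array. Each was read with its brightest probe set only, and its other probe sets were not checked. The shares of all given beside these counts are over every tested probe set, so the units differ. With phenytoin in hippocampus 6 of 78 tested rose and 2 fell (10.3%, against 9.24% of all probe sets), a share near that of the whole array. Without rat 7, 7 rose and 2 fell (11.5%, against 12.3% of all), and with the Gapdh ratio as a covariate none was called. Rab11fip4 and Rab11fip5, effectors that bind Rab11, rose by 0.49 (SE 0.07, limma adjusted p = 0.000832) and 0.37 (SE 0.08). The exchange factors Dennd1a, which acts on Rab35, and Dennd5a rose by 0.38 and 0.31, and Rabl6 rose by 0.30. Rabggtb, a subunit of the prenyl transferase that Rabs need for membrane attachment, fell by 0.29 (SE 0.07, limma adjusted p = 0.0112). In frontal cortex 3 of 78 rose with phenytoin and 0 fell (3.85%, below the 6.39% of all probe sets). These were Tbc1d15, a GTPase-activating protein of Rab7 (0.95, SE 0.12, limma adjusted p = 2.94e-05), Rab11fip3 (0.75, SE 0.14) and Tbc1d23, a bridge between endosomal vesicles and the Golgi (0.52, SE 0.11), which was not called with the beta-actin ratio as a covariate.

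With levetiracetam in brainstem 2 of 80 regulators rose and 5 fell (8.75%, against 9.24% of all probe sets), and with the beta-actin ratio as a covariate 1 rose and 3 fell. The effectors Rabep1, which binds active Rab5, and Rufy3 rose by 0.24 and 0.23. The exchange factors Dennd6b, Dennd1a and Dennd5a fell by 0.58, 0.42 and 0.22, and Rabl6 fell by 0.27. None was called with levetiracetam in hippocampus or frontal cortex, nor with phenytoin in brainstem. Between the drugs, 11 of 78 were higher and 4 lower with phenytoin in hippocampus (19.2%, against 16.8% of all), with Rab11fip4 at 0.47, Dennd5a at 0.42 and Tbc1d15 at -0.37. Without rat 7 they were 14 and 4 (23.1%, against 18.5%), and with the Gapdh ratio as a covariate only Rab11fip4 and Tbc1d15 were called (2.56%, against 5.13%). In frontal cortex 3 were higher and 1 lower (5.13%, against 10.8%), with Tbc1d15 at 0.94, Rab11fip3 at 0.95 and Dennd6b at -0.77. In brainstem 3 were higher and 1 lower (5%, against 2.98%), with Dennd6b at 0.76 and Rabep1 at -0.28. Between regions of control rats, 33 of 83 were higher and 14 lower in brainstem than in hippocampus (56.6%, against 55.4% of all probe sets), with Myo5b, a motor for Rab11 vesicles, lower by 1.88 and Sytl2, an effector of Rab27, higher by 1.38.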

How the data were processed

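The table deposited by the authors gives 1 linear intensity per probe set and array. The software that summarised and scaled these values is not given in the sources used here. Values on the 62 arrays had array medians of 34.1 to 64.1. A value of 16 was added, log2 was taken, and all arrays were quantile-normalized together, with the reference distribution set by the 26300 probe sets measured on every array. A phenytoin hippocampus array (rat 4) lacks 4799 values, among them 6 member probe sets, whose fits use the other arrays. In each region 57 control probe sets and the dimmest 40% were left out, leaving 18625 tested. The fits across regions used the 20202 probe sets tested in at least 1 region.

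Drug contrasts were fitted per region with limma 3.58.1 in R 4.3.3 (lmFit, eBayes with an intensity trend), and regions and the F test of drug by region in a single fit of all 9 groups. P-values are two-sided and adjusted over all probe sets. The scripts were tested on simulated data. The rule named each called probe set of the drug contrasts (or the 3 with the smallest p), the 6 highest and 6 lowest called per region contrast, genes whose probe sets disagree, the 3 smallest p of each F test and up to 6 regulators per drug contrast. Not every disagreeing probe set is given in the text. The members, role groups, lists and this rule were chosen with earlier results of these data known. Nothing in the labels says that arrays of a group come from separate rats beyond their numbers, so p-values measure the spread between these arrays. No 2 arrays of a group were identical (highest correlation 0.987). The number of arrays limits the precision. Alternatives covered the values as deposited, the floor, the dim filter, array weights, 3′/5′ ratios as covariates, a replicate block, 1 probe set per gene, the arrays in the fit and each array left out. The fit without the 4 outlying arrays, the Gapdh covariate together with rat 7 left out, and all alternatives for the F test, regulators and markers were chosen after seeing the data.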

Additional observations from a re-analysis of the deposited data

Results flagged for a closer look

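For 9 Rab probe sets described array by array, and for the summed region markers, the most extreme array of each group was set against the rest of its group. Of 90 such tests 4 passed, and chance alone passes about 1 in 20 groups. For Rab40b (1383826_at) phenytoin frontal cortex rat 7 was low, at a log2 level of 8.91 against 9.37 to 9.59 on the other arrays. For Rab5a (1388800_at) control frontal cortex rat 7 was high, at 9.845 against 8.92 to 9.20. Summed hippocampal marker intensity was low on phenytoin hippocampus rat 7, at 2014 against 4202 to 4701, and on levetiracetam hippocampus rat 7, at 4343 against 4639 to 4832.

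Phenytoin's difference from control was not the same in the 3 regions for 14 Rab probe sets, by limma's F test of the difference itself. The adjusted p-values were 0.000163 for Rab5a (1388800_at), 0.000168 for Rab1a, 0.000265 for Rab11a (1374069_at), 0.00126 for Rab15 (1373646_at), 0.00158 for Rab40b (1383826_at), 0.00769 for Rab21 and 0.00928 for Rab35. They were 0.0133 for Rab6a (1372707_at), 0.0144 for Rab2a (1370087_at), 0.0194 for Rab22a (1377896_at), 0.0258 for Rab11a (1398814_at), 0.0305 for Rab37, 0.031 for Rab14 (1367884_at) and 0.0377 for Rab6b (1388632_at). Rab37 was dim in hippocampus and frontal cortex, so its value is not read. Rab22a (1377896_at) gave 0.33 in hippocampus and -0.38 in frontal cortex, neither of which passed alone.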

How the results depend on the processing

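None of the 112 named results changed sign past the threshold. All 36 named region calls passed in every setting run (8 of them are against a region where the probe set was dim), and of the drug-against-control calls 2 of 4 (levetiracetam, brainstem), 0 of 7 (phenytoin, frontal cortex) and 0 of 18 (phenytoin, hippocampus) did. The cause of the changes below was not tested, except that 1 probe set per gene leaves fewer to call. With the brightest probe set per gene the counts were 31 (brainstem against frontal cortex), 28 (brainstem against hippocampus), 25 (hippocampus against frontal cortex), and for phenytoin 4 and 9 against control and 5 and 13 against levetiracetam in frontal cortex and hippocampus. Phenytoin against control in frontal cortex, 7 calls, gave 18 with array weights, 13 without the 4 outlying arrays, 12 with all arrays in the fit, 4 and 2 with the Gapdh and beta-actin ratios and 3 without a dim filter. Levetiracetam in brainstem, 4 calls, gave 7 with array weights or without the outlying arrays and 2 with the beta-actin ratio. With the Gapdh ratio, phenytoin in hippocampus gave 0 against control and 8 against levetiracetam (2 and 13 when rat 7 was also left out), and the phenytoin F test 7, or 25 with array weights. Phenytoin against levetiracetam in frontal cortex gave 7 with the beta-actin ratio. In brainstem, 2 calls, it gave 4 without the outlying arrays or with the dimmest 60% left out, 1 without a dim filter and 0 with all arrays in the fit.

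Leaving out 1 array at a time gave 4 to 8 calls for levetiracetam in brainstem and 1 to 11 for phenytoin in frontal cortex. It gave 12 to 24 for phenytoin in hippocampus, 1 to 4, 17 to 26 and 8 to 15 for phenytoin against levetiracetam in brainstem, hippocampus and frontal cortex, and 10 to 19 for the phenytoin F test. Of 61 pairs of arrays with the same number, 8 had a correlation over 0.1 within a region (median -0.01) and 33 across regions of 1 treatment (median 0.11). Arrays with the same number and treatment thus tended to correlate across regions, and the labels do not say whether they came from 1 rat. The main fits across regions still treat the arrays as independent, which was not shown. In the region contrasts and the F test, the replicate block joined arrays of the same number and treatment. In the drug contrasts it joined arrays of the same number across treatments, which are different rats, so it is no check within a rat. With the number as a replicate block, phenytoin against control gave 2 in frontal cortex and 14 in hippocampus, levetiracetam in brainstem 4, phenytoin against levetiracetam 2, 20 and 9 in brainstem, hippocampus and frontal cortex, the phenytoin F test 14, and the region contrasts 49, 52 and 45, the same counts as without it.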
